A study of Arabidopsis thaliana with 9 samples.

Results

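The transcripts described here encode the 8 subunits of Polycomb repressive complex 2 (PRC2) of *Arabidopsis thaliana*. They were chosen by locus, 8 of the 37336 genes in the count tables. The members are *CLF* (AT2G23380), *SWN* (AT4G02020) and *MEA* (AT1G02580), the homologs of Drosophila Enhancer of zeste; *EMF2* (AT5G51230), *VRN2* (AT4G16845) and *FIS2* (AT2G35670), the homologs of Drosophila Suppressor of zeste 12; and the WD40 proteins *FIE* (AT3G20740) and *MSI1* (AT5G58230). Of these, 6 are used in vegetative tissue, and 2, *MEA* and *FIS2*, are known as seed-specific.

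PRC2 trimethylates H3K27, a histone mark that keeps developmental genes silent through cell divisions. Each complex carries a catalytic subunit (CLF, SWN or MEA) and a zinc finger subunit (EMF2, VRN2 or FIS2), joined to FIE and MSI1, which are common to all forms. EMF2 and VRN2 complexes act in the plant body, where they repress floral genes and *FLC*, whereas the complex of MEA and FIS2 acts in the female gametophyte and the endosperm.

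The mRNA-seq experiment comprised 9 libraries, made from total RNA by the methods, with 3 biological replicates each of *zmp-2* (T-DNA line SALK_008955), *zmp-1* (SALK_066029) and WT. Both mutants carry an insertion in *ZMP*, which encodes a protein that interacts with RNA polymerase IV, and all plants are of the Col-0 ecotype, grown in long days. By the sample labels the plants were 12-day seedlings, and a figure legend of the study also names seedlings for its RNA-seq. The methods name inflorescences instead. The comparison of each mutant with WT asks whether transcripts of the silencing complex differ when *ZMP* is disrupted.

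Read assignment among the homologs matters for every value that follows, so a stretch where each family is alike is shown. These are 90 coding bases with the intron between 2 coding exons removed, read from RefSeq TAIR10.1, all on the plus strand. Lower case marks bases equal to the first gene of the family, and capitals mark bases that differ from it. The *CLF* stretch spans chr2:9958810-9958978, that of *SWN* chr4:890223-890383 and that of *MEA* chr1:547626-547791.
CLF: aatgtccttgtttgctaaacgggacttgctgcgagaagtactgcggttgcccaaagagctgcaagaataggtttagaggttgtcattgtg
SWN: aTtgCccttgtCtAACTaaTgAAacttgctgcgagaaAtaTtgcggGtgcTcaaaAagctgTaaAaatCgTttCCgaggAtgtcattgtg
MEA: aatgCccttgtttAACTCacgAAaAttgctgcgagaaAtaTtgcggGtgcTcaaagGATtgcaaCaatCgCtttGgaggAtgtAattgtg

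In this stretch 62 of the 90 bases are identical in all 3 catalytic genes, and *SWN* and *MEA* each differ from *CLF* at 22. For the zinc finger genes the stretch spans chr5:20828802-20829094 in *EMF2*, chr4:9479129-9479336 in *VRN2* and chr2:14995992-14996204 in *FIS2*.
EMF2: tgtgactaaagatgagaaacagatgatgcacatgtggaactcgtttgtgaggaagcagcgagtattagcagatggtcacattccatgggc
VRN2: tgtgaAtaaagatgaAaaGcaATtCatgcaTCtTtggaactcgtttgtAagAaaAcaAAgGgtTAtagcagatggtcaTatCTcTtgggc
FIS2: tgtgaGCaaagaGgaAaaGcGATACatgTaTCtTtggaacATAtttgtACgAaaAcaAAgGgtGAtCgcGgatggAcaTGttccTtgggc

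Here 56 bases are identical in the 3 genes, and *VRN2* differs from *EMF2* at 21 and *FIS2* at 32. Over the whole coding sequences, the longest run shared by 2 members of a family was 30 bases, between *SWN* and *MEA* (ttgctgcgagaaatattgcgggtgctcaaa). *CLF* and *SWN* share a run of at most 20 bases, and *EMF2* and *VRN2* one of 15. The longest match of any member's coding sequence elsewhere in the genome was 187 bases, at 74.3% identity, for *SWN*, and the counts hold uniquely mapped reads.

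The libraries held between 5815211 and 25182435 counts on genes, and 55.1 to 66.3% of them fell on chloroplast genes. The floor, set at 3 counts, equals 0.119 RPM in the deepest and 0.516 RPM in the shallowest library, and floors and counting intervals cover counting error only. *ZMP* (AT5G63700) itself had 1.50, 1.00 and 1.32 TMM-scaled RPM in the *zmp-2* libraries and 2.14, 3.00 and 2.83 in *zmp-1*, against 5.53, 6.76 and 7.48 in WT. All mutant libraries lay below all WT libraries, and edgeR gave log2 fold changes of −2.35 for *zmp-2* (adjusted p = 0.0101) and −1.35 for *zmp-1* (adjusted p = 0.155). DESeq2 called *ZMP* in *zmp-1* as well (adjusted p = 0.0153), and edgeR did not call it in *zmp-2* when fitted to the 6 libraries compared alone (adjusted p = 0.0558). The tissue label was set against marker genes. The 8 floral markers summed to 1.42 to 3.40 TMM-scaled RPM per library, whereas 3 leaf markers summed to 5263 to 7184. Of the floral markers only *AG*, which specifies stamens and carpels, had 0 counts in all 9 libraries. Only *SEP3* passed the filter on low counts, at 0.606 to 2.69 TMM-scaled RPM.

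Transcripts of the 6 vegetative subunits were present in every library, and those of the seed-specific subunits were at or near the floor. Levels were compared between genes per length, as TMM-scaled RPM per kb of merged exons (mean ± SD over the 9 libraries). *MSI1* was highest with 9.96 ± 0.905, followed by *VRN2* with 7.67 ± 0.878, *EMF2* with 5.81 ± 0.911, *SWN* with 5.78 ± 0.581, *FIE* with 3.73 ± 0.781 and *CLF* with 2.22 ± 0.219. *EMF2* and *SWN* could not be ordered, since *EMF2* was the higher in 4 of 9 libraries. The order of *MSI1* over *VRN2*, *VRN2* over *EMF2*, and *SWN* over *FIE* held in 8 of 9 libraries each, and that of *FIE* over *CLF* in 9 of 9.

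**Figure D1:**
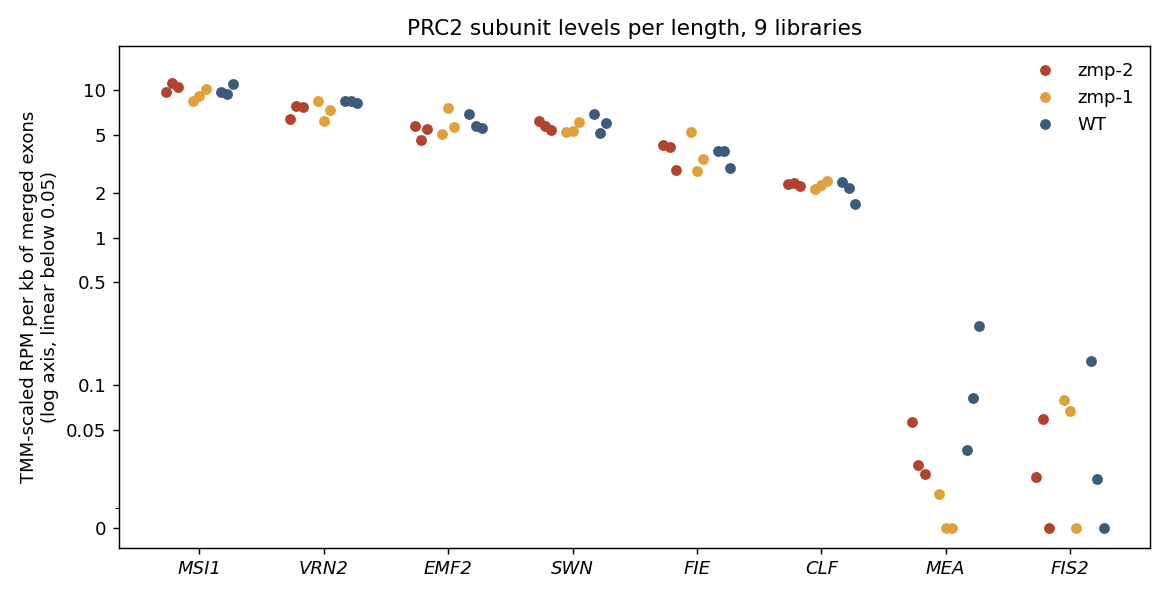
Levels of the 8 PRC2 subunits in TMM-scaled RPM per kb of merged exons (vertical axis, logarithmic above 0.05 and linear below), with a point per library and the genotypes side by side. *MSI1* averaged 9.96 and *CLF* 2.22, and *MEA* and *FIS2* averaged 0.0562 and 0.0447.

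*CLF*, which encodes the main catalytic subunit of the plant body, lies on chromosome 2 from 9955092 to 9960386. It had 8.19, 8.25 and 7.95 TMM-scaled RPM in the *zmp-2* libraries and 7.50, 7.95 and 8.50 in *zmp-1*, against 8.39, 7.61 and 5.96 in WT. The lowest value was that of WT replicate 3, and the genotypes overlapped. The log2 fold change was 0.15 in *zmp-2* (SE 0.178, 95% interval −0.24 to 0.54, edgeR adjusted p = 0.791) and 0.12 in *zmp-1* (SE 0.183, edgeR adjusted p = 0.885). In bulk RNA, fewer cells of a type and less RNA per cell cannot be told apart, which holds for every level given here. A stretch of 80 exonic bases of *CLF* overlaps genes on the opposite strand, and the counted strand is not given in the sources used here, so those reads are uncertain. Of these genes, AT2G23390 averaged 21.3, 19.0 and 15.7 TMM-scaled RPM in *zmp-2*, *zmp-1* and WT, and AT2G23370 averaged 4.0, 4.5 and 3.6. Their part in the level of *CLF* was not tested.

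*SWN*, which encodes a catalytic subunit partly redundant with CLF, lies on chromosome 4 from 886580 to 891987. Its levels were 21.2, 19.6 and 18.3 TMM-scaled RPM in the *zmp-2* libraries and 17.7, 18.0 and 20.8 in *zmp-1*, against 23.5, 17.6 and 20.4 in WT. WT held both the highest and the lowest of the 9 values, so that the mutants lay within the spread of WT. The log2 fold change was −0.05 in *zmp-2* (SE 0.155, edgeR adjusted p = 0.924) and −0.12 in *zmp-1* (SE 0.158, edgeR adjusted p = 0.857).

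*MEA*, the imprinted catalytic subunit of the seed, lies on chromosome 1 from 544733 to 549202. Its counts were 2, 1 and 1 in *zmp-2* and 1, 0 and 0 in *zmp-1*, against 1, 3 and 6 in WT. Only WT replicate 3 exceeded the floor of 3 counts, and the gene did not pass edgeR's filter on low counts. The pooled level was 0.0923 RPM in *zmp-2* (exact Poisson 95% interval 0.0251 to 0.236) and 0.0262 RPM in *zmp-1* (0.000664 to 0.146), against 0.293 RPM in WT (0.140 to 0.539). With no filter on low counts edgeR gave an adjusted p of 0.689 in *zmp-2* and of 0.492 in *zmp-1* (unadjusted p = 0.0279 in *zmp-1*). Over all libraries *MEA* had 15 counts, against 894 for *CLF*, and was 40.9-fold lower per length (exact binomial 95% interval 24.7 to 73.5).

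*EMF2*, needed to keep the shoot from flowering at germination, lies on chromosome 5 from 20823644 to 20829644. It had 15.5, 12.5 and 14.8 TMM-scaled RPM in the *zmp-2* libraries and 13.7, 20.5 and 15.3 in *zmp-1*, against 18.8, 15.5 and 14.95 in WT. The highest value, in *zmp-1* replicate 2, came from the shallowest library, and the genotypes overlapped. The log2 fold change was −0.20 in *zmp-2* (SE 0.185, 95% interval −0.61 to 0.20, edgeR adjusted p = 0.712) and −0.01 in *zmp-1* (SE 0.188, edgeR adjusted p = 0.996).

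*VRN2*, known for the stable repression of *FLC* after cold, lies on chromosome 4 from 9476069 to 9479878. Its levels were 12.6, 15.4 and 15.2 TMM-scaled RPM in the *zmp-2* libraries and 16.8, 12.2 and 14.5 in *zmp-1*, against 16.6, 16.8 and 16.2 in WT. All *zmp-2* libraries lay below all WT libraries, while *zmp-1* overlapped with WT. *VRN2* was the 1 member of 6 whose libraries were separate in *zmp-2* against WT, where 16.3% of all genes tested were separate in either direction. The log2 fold change was −0.20 in *zmp-2* (SE 0.162, 95% interval −0.55 to 0.16, edgeR adjusted p = 0.684) and −0.18 in *zmp-1* (SE 0.165, edgeR adjusted p = 0.787). The *zmp-2* and WT values gave p = 0.1 in a two-sided exact permutation test, the smallest that 3 against 3 libraries allow.

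*FIS2*, the zinc finger partner of MEA in the endosperm, lies on chromosome 2 from 14992565 to 14996756. It had 1, 2 and 0 counts in *zmp-2* and 5, 1 and 0 in *zmp-1*, against 4, 1 and 0 in WT. Each genotype had a library at 0, and 7 of 9 libraries were at or below the floor, so that *FIS2* too did not pass the filter. A stretch of 44 exonic bases overlaps AT2G35680 on the opposite strand, which averaged 26.0 TMM-scaled RPM in *zmp-2*, so even these few counts are uncertain. The pooled level was 0.0692 RPM in *zmp-2* (exact Poisson 95% interval 0.0143 to 0.202) and 0.157 RPM in *zmp-1* (0.0577 to 0.342), against 0.146 RPM in WT (0.0475 to 0.342). Per length *FIS2* was 121-fold lower than *EMF2* (exact binomial 95% interval 71.8 to 221) and 169-fold lower than *VRN2* (100.2 to 309). With no filter on low counts, edgeR called neither seed-specific gene in any comparison, although *MEA* in *zmp-1* had an unadjusted p of 0.0279. At so few counts a difference can be missed.

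*FIE*, the WD40 protein that all forms of the complex need, lies on chromosome 3 from 7248809 to 7252452 on the minus strand. It had 6.69, 6.48 and 4.50 TMM-scaled RPM in the *zmp-2* libraries and 8.13, 4.42 and 5.39 in *zmp-1*, against 6.10, 6.10 and 4.65 in WT. *FIE* was the most variable of the 6, with a coefficient of variation of 20.9% over the 9 libraries against 9.08% for *MSI1*, and the lowest library of each genotype had 4.42 to 4.65 TMM-scaled RPM. The log2 fold change was 0.06 in *zmp-2* (SE 0.259, 95% interval −0.50 to 0.63, edgeR adjusted p = 0.949), a sign that turned to −0.03 with library size alone. In *zmp-1* it was 0.13 (SE 0.263, 95% interval −0.44 to 0.71, edgeR adjusted p = 0.913), and it was −0.20 without *zmp-1* replicate 1, the library with the highest level. Genes on the opposite strand overlap 92 exonic bases of *FIE*.

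*MSI1*, a histone-binding WD40 protein that PRC2 shares with the chromatin assembly factor CAF-1, lies on chromosome 5 from 23556012 to 23558245. Its levels were 15.9, 18.2 and 17.2 TMM-scaled RPM in the *zmp-2* libraries and 13.7, 14.8 and 16.7 in *zmp-1*, against 15.8, 15.4 and 18.0 in WT. The genotypes overlapped. The log2 fold change was 0.06 in *zmp-2* (SE 0.149, 95% interval −0.26 to 0.39, edgeR adjusted p = 0.903), which turned to −0.03 with library size alone, and −0.12 in *zmp-1* (SE 0.153, edgeR adjusted p = 0.847). A stretch of 132 exonic bases of *MSI1* overlaps AT5G58240 on the opposite strand, which had 8.60, 8.91 and 7.30 TMM-scaled RPM on average in *zmp-2*, *zmp-1* and WT.

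**Figure D2:**
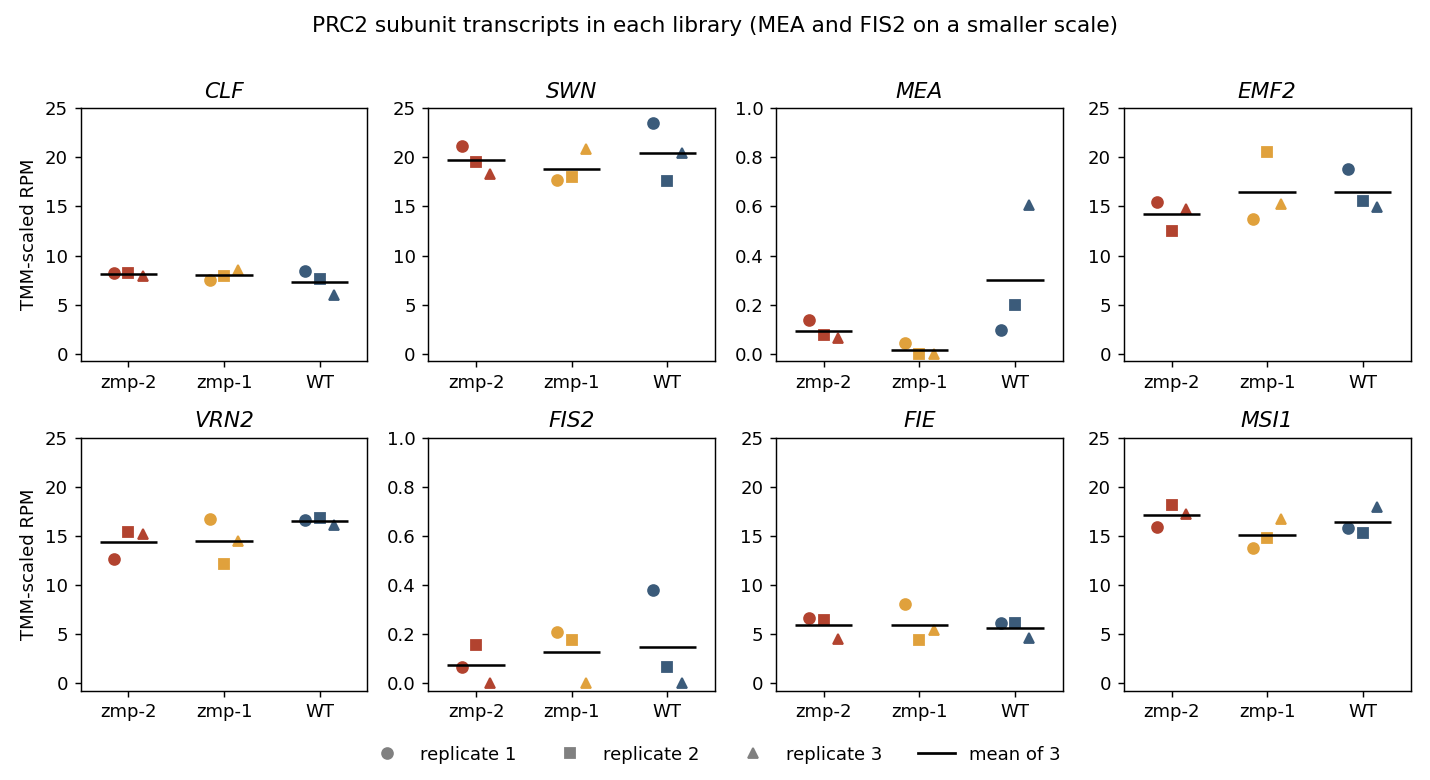
TMM-scaled RPM (vertical axis) of each PRC2 subunit in each library, by genotype, with symbols for the replicates and a bar for the mean of 3; *MEA* and *FIS2* are drawn on a smaller scale. *VRN2* reached at most 15.4 in *zmp-2* and at least 16.2 in WT, and the other 5 members tested overlapped between *zmp-2* and WT.

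No PRC2 subunit passed the test in any comparison. In *zmp-2* against WT, edgeR called 0 of the 6 members tested at an adjusted p of at most 0.05, where 0.177% of the 18109 genes tested were called. In *zmp-1* against WT it called 0 of 6 (0.0442% of all genes), and in *zmp-2* against *zmp-1* 0 of 6 (0.0221% of all genes). At an unadjusted p under 0.05, edgeR and DESeq2 each found 0 of 6 members in each comparison, where edgeR found 12.1%, 9.16% and 4.36% of all genes. Apart from *VRN2* in *zmp-2*, no member was separate between genotypes, with 0 of 6 in *zmp-1* against WT (12.6% of all genes) and 0 of 6 in *zmp-2* against *zmp-1* (11.9% of all genes).

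The 95% intervals bound the size of change these libraries leave possible. Over the 6 members in *zmp-2* against WT, the log2 fold changes ran between −0.20 and 0.15, and no 95% interval reached below −0.61 or above 0.63, a 1.55-fold rise. In *zmp-1* against WT they ran between −0.18 and 0.13, with intervals within −0.54 and 0.71. The comparisons with WT share the WT libraries. Between the alleles, *zmp-2* against *zmp-1*, the values ran between −0.19 for *EMF2* and 0.19 for *MSI1*, with edgeR adjusted p = 1.00 for each. The median of the 6 was 0.00 in *zmp-2* and −0.06 in *zmp-1* against WT, beside −0.02 and −0.01 over all genes tested, and with library size alone it was −0.08 and −0.17, beside −0.10 and −0.12.

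**Figure D3:**
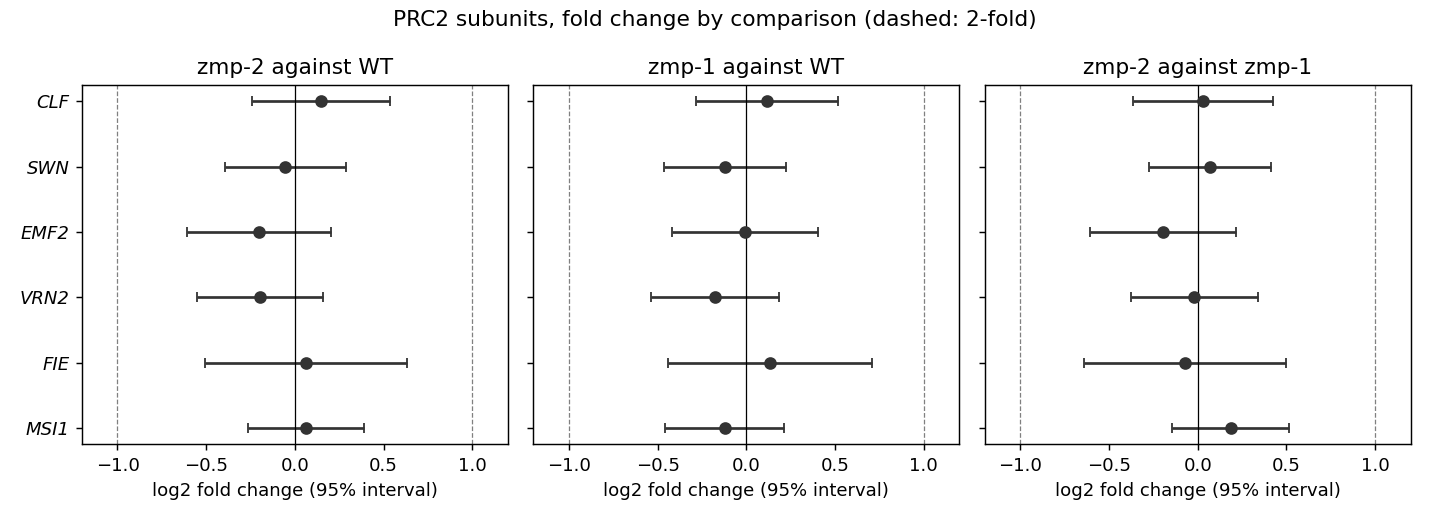
Log2 fold change (points) with 95% interval (bars) of the 6 PRC2 subunits tested, in *zmp-2* against WT, *zmp-1* against WT and *zmp-2* against *zmp-1*; dashed lines mark a 2-fold change. All intervals include 0, and the widest bound is 0.71, for *FIE* in *zmp-1*.

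The balance of alternative subunits was described by ratios per length within a library. *SWN* exceeded *CLF* in every library, with a log2 ratio of *CLF* over *SWN* of −1.32 ± 0.0845 in *zmp-2* and −1.28 ± 0.0561 in *zmp-1*, against −1.54 ± 0.284 in WT (SD, n = 3 each). The widest values were in WT, between −1.82 in replicate 3 and −1.25 in replicate 2. *VRN2* exceeded *EMF2* in 8 of 9 libraries, with *EMF2* over *VRN2* at −0.47 ± 0.301 in *zmp-2* and −0.27 ± 0.527 in *zmp-1*, against −0.47 ± 0.168 in WT. The exception was *zmp-1* replicate 2, at 0.29.

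*MSI1* exceeded *FIE* in every library. The log2 ratio of *FIE* over *MSI1* was −1.50 ± 0.348 in *zmp-2* and −1.32 ± 0.542 in *zmp-1*, against −1.50 ± 0.347 in WT. Each of the 3 ratios overlapped between all genotypes. The seed-specific genes together made up 0.190% ± 0.0955 of the summed subunit level per length in *zmp-2* and 0.161% ± 0.145 in *zmp-1*, against 0.496% ± 0.200 in WT (SD, n = 3 each). All mutant libraries lay between 0 and 0.281% and all WT libraries between 0.304 and 0.704%, but these shares rest on 29 counts in all.

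**Figure D4:**
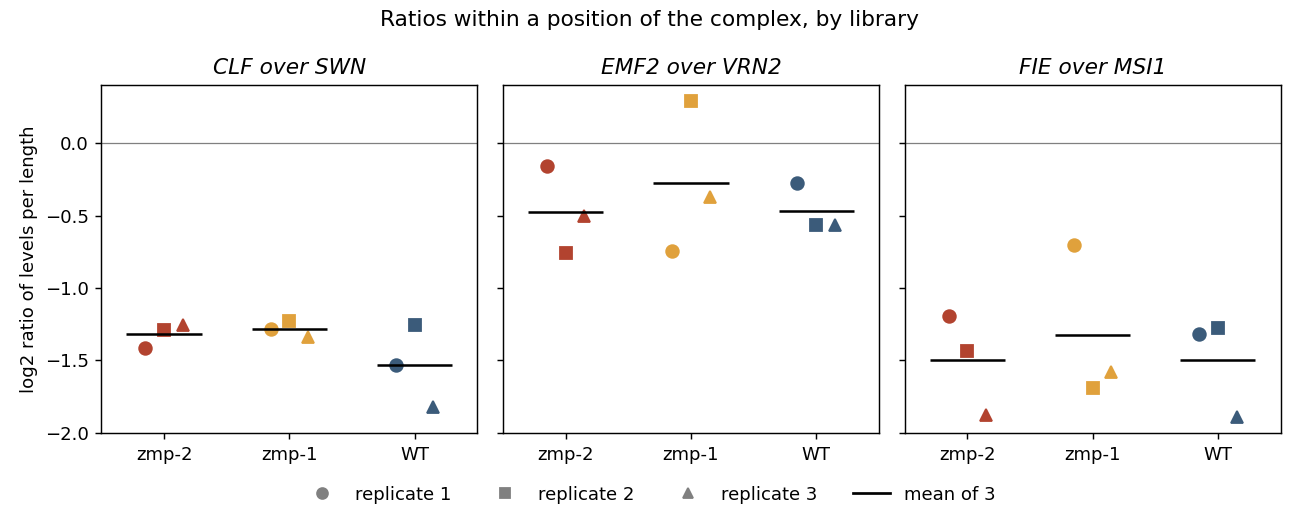
Log2 ratio of levels per length (vertical axis) for *CLF* over *SWN*, *EMF2* over *VRN2* and *FIE* over *MSI1* in each library by genotype, with a bar for the mean of 3. All ratios lie below 0 except *EMF2* over *VRN2* in *zmp-1* replicate 2, at 0.29.

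Proteins that work with PRC2 were described from lists chosen with earlier results known. Among 19 cofactors, 16 were tested and edgeR called 0 in each comparison (0 also at an unadjusted p under 0.05, and 0 by DESeq2). In *zmp-2* against WT 8 had values above 0 and 8 below, and their median was 0.03 (−0.05 with library size alone). The highest was *EMF1*, which encodes a plant protein that acts with PRC2, at 0.30 (edgeR adjusted p = 0.644), and the lowest *ALP1*, a transposase-derived protein found with PRC2, at −0.42 (edgeR adjusted p = 0.482). *VIN3*, which cold induces to join VRN2 at *FLC*, had a total of 1 count over the 9 libraries.

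Of the other MSI proteins and CAF-1 subunits, 6 of 6 were tested and 0 called by edgeR or DESeq2, with 0 at an unadjusted p under 0.05. In *zmp-2* all 6 had values above 0 (5 of 6 with library size alone), and their median was 0.15. In *zmp-1* 3 had values above 0 and 3 below, with a median of 0.01. The highest in *zmp-2* was *FAS2*, a CAF-1 subunit, at 0.42 (edgeR adjusted p = 0.674), and the lowest *MSI2*, a relative of *MSI1*, at 0.01 (edgeR adjusted p = 0.993). Markers of dividing cells, which use CAF-1 during replication, stood beside this. The 8 markers summed to 54.8 to 63.3 TMM-scaled RPM in *zmp-2* and 48.8 to 56.3 in *zmp-1*, against 42.1 to 42.9 in WT. All 8 were above 0 in *zmp-2* under each scaling, with a median of 0.49, led by *CYCB1;1*, a mitotic cyclin, at 0.74 (edgeR adjusted p = 0.270), with *CDKB2;1*, a mitotic kinase, lowest at 0.26 (edgeR adjusted p = 0.592). EdgeR and DESeq2 called 0 of 8. At an unadjusted p under 0.05 in *zmp-2*, edgeR found 4 and DESeq2 2, where edgeR found 12.1% of all genes tested. The part of these markers in the levels of *MSI1* was not tested.

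PRC1 subunits, which ubiquitinate histone H2A at Polycomb targets, were tested for 4 of 5 genes. EdgeR and DESeq2 called 0, with 1 at an unadjusted p under 0.05 by each tool in *zmp-2*, where edgeR found 12.1% of all genes. All 4 had values below 0, with a median of −0.47 in *zmp-2* and −0.32 in *zmp-1*. *RING1B*, an E3 ligase, had 2.39, 2.85 and 2.58 TMM-scaled RPM in the *zmp-2* libraries and 3.94, 3.71 and 2.55 in *zmp-1*, against 2.77, 4.26 and 8.49 in WT. WT replicate 3 stood apart as the highest, and the log2 fold change in *zmp-2* was −0.98 (edgeR adjusted p = 0.316). *RING1A* was the least negative in *zmp-2*, at −0.29 (edgeR adjusted p = 0.767). WT replicate 3 was also the highest WT library for *RING1A*, at 7.17 TMM-scaled RPM against 3.05 and 3.94. The same held for *BMI1B*, at 6.77 against 4.96 and 4.99, but not for *BMI1A*, at 3.74 against 2.77 and 3.94. The shared direction thus leans on a library that both comparisons with WT use.

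Enzymes that remove methyl groups from H3K27 or add the first one were tested for 6 of 7 genes, and 0 were called by edgeR or DESeq2 (0 at an unadjusted p under 0.05). In *zmp-2* *JMJ32*, a demethylase, was highest at 0.37 (edgeR adjusted p = 0.809) and *ATXR5*, a monomethyltransferase, lowest at −0.32 (edgeR adjusted p = 0.797). The median was 0.02 in *zmp-2* (−0.05 with library size alone) and −0.03 in *zmp-1*.

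Of the 25 PRC2 targets listed, 9 passed the filter on low counts, and *AG*, *WUS* and *LEC1*, regulators of flowers, stem cells and embryos, had 0 counts in all libraries. EdgeR and DESeq2 called 0 of 9, with 2 at an unadjusted p under 0.05 by each tool in each mutant, *MAF4* and *MAF5*. At that level edgeR found 12.1% of all genes tested in *zmp-2* and 9.16% in *zmp-1*. The median was 0.26 in *zmp-2* and 0.16 in *zmp-1*, with 6 of 9 above 0 in *zmp-2* and 7 of 9 in *zmp-1* (5 of 9 in *zmp-1* with library size alone). The lowest in *zmp-2* was *STM*, a meristem homeobox gene, at −0.43 (edgeR adjusted p = 0.710).

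*MAF4* (AT5G65070), a relative of the flowering repressor *FLC*, was the highest. It had 2.94, 3.08 and 2.38 TMM-scaled RPM in the *zmp-2* libraries and 2.26, 1.94 and 2.41 in *zmp-1*, against 0.477, 1.05 and 1.52 in WT. All mutant libraries lay above all WT libraries, at log2 fold changes of 1.46 in *zmp-2* (SE 0.368, edgeR adjusted p = 0.172) and 1.13 in *zmp-1* (SE 0.382, edgeR adjusted p = 0.404). Of all genes tested, 16.3% were separate in either direction in *zmp-2* against WT and 12.6% in *zmp-1* against WT, with the same WT libraries in each. *MAF5* (AT5G65080), its neighbor, was picked after its values were seen.

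*MAF5* had 5.53, 4.55 and 4.17 TMM-scaled RPM in the *zmp-2* libraries and 4.61, 2.83 and 4.11 in *zmp-1*, against 2.38, 1.84 and 2.63 in WT. These too did not overlap with WT, at log2 fold changes of 1.07 in *zmp-2* (edgeR adjusted p = 0.163) and 0.80 in *zmp-1* (edgeR adjusted p = 0.403). DESeq2 gave adjusted p = 0.0692 for *MAF4* and 0.0861 for *MAF5* in *zmp-2*. *MAF4* lies 494 kb from *ZMP* on the same arm of chromosome 5, and *MAF5* 499.7 kb. Whether this position has a part in their levels was not tested.

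**Figure D5:**
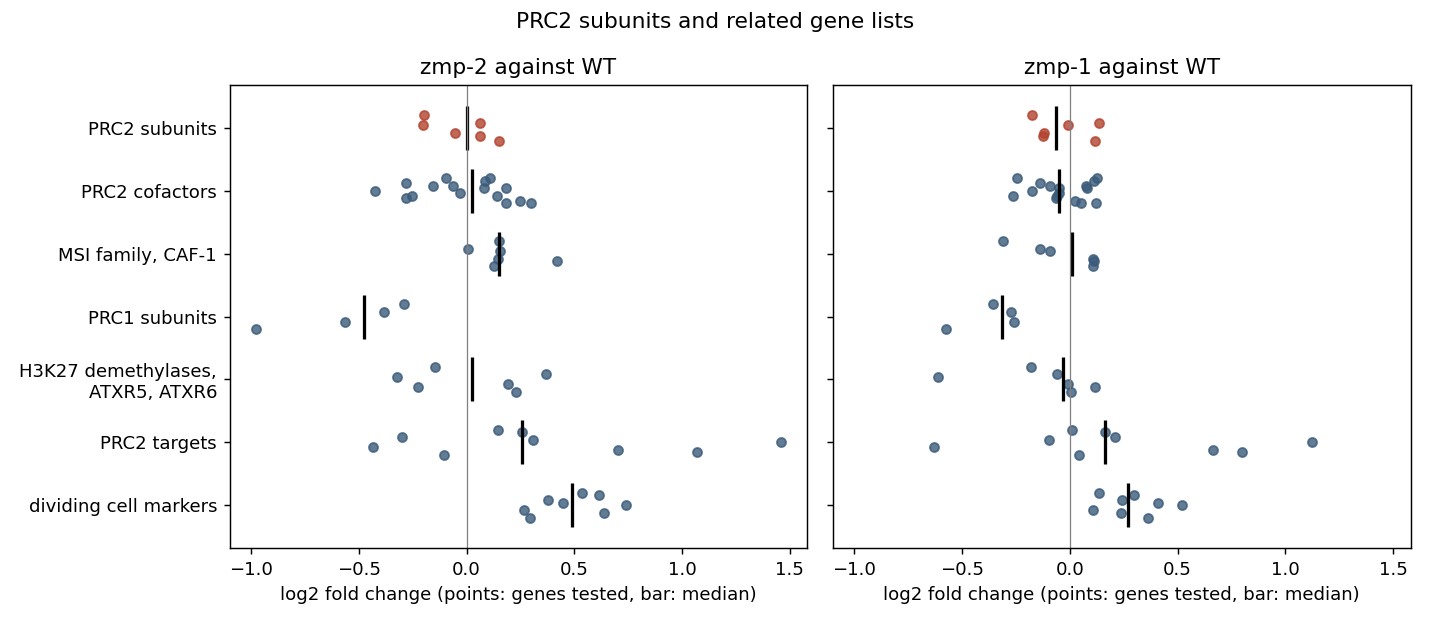
Log2 fold change (horizontal axis) of the PRC2 subunits and of 6 related lists, against WT, with a point per gene tested and a bar at the median. The PRC2 subunits stay between −0.20 and 0.15 in *zmp-2*, and *MAF4*, at 1.46, is the farthest point of the targets.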

How the data were processed

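The authors sequenced paired 150-nt reads, used Trim Galore for trimming and STAR 2.5.3a for mapping (TAIR10, Araport11 annotation), and deposited STAR's raw counts per gene, which hold read pairs with a unique position. The counted strand is not given in the sources used here. Genotypes came from the sample labels.

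Counts were filtered with filterByExpr by genotype, leaving 18109 of 37336 genes, scaled with TMM and tested in R 4.3.3 with edgeR 4.0.16 (quasi-likelihood, all 9 libraries, 1 coefficient per genotype, two-sided). Genes were called at a Benjamini-Hochberg adjusted p of at most 0.05 over all genes tested. The biological coefficient of variation was 0.234, and replicates differed by more than sampling noise. On simulated data for *zmp-2* against WT (17864 genes), 90.2% of 4-fold and 28.3% of 2-fold changes were called. TMM-scaled RPM is edgeR's CPM, which divides the count by the library size times its TMM factor. Lengths are merged exons of RefSeq TAIR10.1, whose nuclear chromosomes have the lengths of TAIR10. Homologs were aligned with MAFFT 7.526 and compared with blastn 2.17.0.

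Members and lists were chosen with earlier results of these data known. The genes named are all members, in each functional list the highest and lowest log2 fold change in *zmp-2* against WT and any gene called, and the gene most alike to each member. Other genes named, such as *MAF5*, *VIN3*, *WUS*, *LEC1* and the single marker genes, were picked with their values in view. The alternatives tried were DESeq2 1.42.0, upper-quartile scaling, library size alone, no filter, at least 10 counts in every library, no organelle genes, the 6 libraries compared, a replicate block (also, added after seeing the data, with the 6 libraries of *zmp-2* and WT alone), omission of each library, and other lengths. Deviations from the genotype means correlated in all 3 same-numbered pairs of *zmp-2* and WT (r = 0.149 to 0.295, against −0.311 to 0.0447 in the 6 other pairs). This was not so for *zmp-1* and WT (0 of 3 pairs with r over 0.1) or *zmp-2* and *zmp-1* (1 of 3). The labels number the replicates but state no pairing or batch, so whether the libraries were paired is not known.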

Additional observations from a re-analysis of the deposited data

How the results depend on the processing

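The count of members called was 0 of those tested in each comparison under 17 alternatives, and under 1 added after seeing the data for *zmp-2* against WT. None of the 312 recomputed log2 fold changes of the 6 members in the main fit passed, and their smallest adjusted p was 0.54. These leave out *MEA* and *FIS2*. With no filter, *MEA* had an edgeR adjusted p of 0.492 in *zmp-1* against WT. Library size alone turned *FIE* to −0.0252 and *MSI1* to −0.0307 in *zmp-2* against WT, and *VRN2* to 0.00765 in *zmp-2* against *zmp-1*, and it moved the median of all genes to −0.10 in *zmp-2* and −0.12 in *zmp-1* against WT, in place of −0.02 and −0.01. Upper-quartile scaling turned *EMF2* to 0.0162 in *zmp-1*. Signs near 0 also turned when single libraries were left out, in *zmp-2* against WT for *FIE* (−0.0473 to 0.23) and *SWN* (−0.16 to 0.0562), in *zmp-1* against WT for *CLF* (−0.00831 to 0.22), *FIE* (−0.20 to 0.29) and *EMF2* (−0.18 to 0.12), and in *zmp-2* against *zmp-1* for *CLF* (−0.017 to 0.0806), *FIE* (−0.23 to 0.26) and *VRN2* (−0.12 to 0.11). The causes were not tested. With a replicate block, 0 members were called in each comparison. In *zmp-2* against WT, where same-numbered libraries correlated, the blocked values ran between −0.20 and 0.15. With the 6 libraries alone they ran between −0.21 and 0.16, where *EMF2* had an edgeR adjusted p of 0.584 and *VRN2* one of 0.593. No call on a gene of the other lists changed under the alternatives that kept all libraries of a comparison. The fits that left out single libraries were not looked up for these genes. *MAF4* was not tested with at least 10 counts in every library. Without length correction the log2 ratio of *EMF2* over *VRN2* was 0.0492 in place of −0.41, since *EMF2* is the longer gene. Over all genes, DESeq2 called 218, 110 and 16 where edgeR called 32, 8 and 4 in *zmp-2* against WT, *zmp-1* against WT and *zmp-2* against *zmp-1*. No filter gave 130, 51 and 8, and the separate fits 1, 5 and 6 (45 in *zmp-2* against WT with the replicate block). Leaving out single libraries gave 5 to 110, 0 to 53 and 1 to 27. *MEA* and *FIS2* had at most 6 counts in any library.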

Other observations

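The genes whose level across the 9 libraries was most like that of each member were looked up among 11016 genes with at least 5 TMM-scaled RPM on average, by Pearson's r on log2(TMM-scaled RPM + 1), as a description. They were *UVR8*, the ultraviolet-B receptor, for *CLF* (r = 0.966), AT2G41600 for *SWN* (0.968), AT2G34590 for *EMF2* (0.955), AT5G06050 for *VRN2* (0.948), *NEK6*, a NIMA-related kinase, for *FIE* (0.882) and AT5G02610 for *MSI1* (0.913). The points share library and depth, and such values are the highest of many.

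Among the members themselves, the 15 pairwise r over the 9 libraries ran between −0.447 for *FIE* and *MSI1* and 0.366 for *SWN* and *MSI1*. *EMF2* and *VRN2*, which can occupy the same position, had −0.421, and *CLF* and *SWN* 0.183.

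Of the 12 seed and endosperm markers, 2 passed the filter. *CRA1*, a seed storage protein gene, had 9.22, 6.01 and 1.66 TMM-scaled RPM in the *zmp-2* libraries and 26.0, 10.3 and 25.5 in *zmp-1*, against 19.3, 0.656 and 3.64 in WT. *OLEO1*, an oil body protein gene, had 0.478, 0.694 and 0.0662 in *zmp-2* and 1.30, 0.884 and 1.70 in *zmp-1*, against 0.572, 0.131 and 0.101 in WT. EdgeR and DESeq2 called neither of them in any comparison. At an unadjusted p under 0.05, each found 1 in *zmp-1* against WT, where edgeR found 9.16% of all genes. In *zmp-2* against *zmp-1*, edgeR found 2 and DESeq2 1, where edgeR found 4.36% of all genes. Only for *OLEO1* did *zmp-1* lie above WT in all libraries, where 12.6% of all genes were separate in either direction. *OLEO1* had 31, 5 and 12 counts in *zmp-1* and 6, 2 and 1 in WT, so WT replicates 2 and 3 lay below the floor of 3. It passed the filter through *zmp-1*, where it was high, and was not tested in the fit of *zmp-1* and WT alone. Its separation is therefore a description only. The 4 genes *YUC10*, *IKU2*, *ZOU* and *ALE1*, active in endosperm, had 0 counts in all libraries.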
